A study of Mus musculus with 22 samples.

Results

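Secreted Wnt antagonists are proteins released into the extracellular space that keep Wnt ligands from signalling, and 8 genes of this kind were followed among the 29367 genes measured in mouse optic nerve astrocytes: Frzb, Sfrp1, Sfrp2, Sfrp4, Sfrp5, Wif1, Dkk2 and Dkk3. They were matched by gene symbol and each was found once. The list was chosen by an earlier look at the same 22 libraries, in which their levels across region and day were already known. Their levels and differences are therefore given below as a description, without p-values. Where a member is said below to be called or to pass, its adjusted p was under 0.05, which is no test of it. At 30 days after injury the optic nerve proper (ONP) held less Wif1 (mean 8.29 against 45.2 CPM) and less Frzb (12.7 against 28.1 CPM) than at 7 days, whereas in the optic nerve head (ONH) the fitted change of each of these genes was 1.26-fold or less. Sfrp1 and Dkk3 were more abundant in the ONH than in the ONP at both times.

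The mice were 3 to 4 months old, homozygous for the ribotag allele (Rpl22 HA/HA) and positive for GFAP-Cre 73.12, both on a C57Bl/6 background. A constitutive mouse GFAP promoter drives this Cre, so the HA tag marks the ribosomes of cells that have expressed it at any stage, and mRNA was precipitated with these ribosomes. All 4 groups carried both alleles and all had polystyrene microbeads injected into 1 eye to raise the intraocular pressure. The ONH is the unmyelinated stretch of the nerve behind the eye and the ONP here is an equal length just behind it. The groups were ONH at 7 days (n = 4), ONH at 30 days (n = 7), ONP at 7 days (n = 4) and ONP at 30 days (n = 7), and each library was a pool of 4 mice (2 males and 2 females). Samples without injury were not analysed here, so a difference between 7 and 30 days has no uninjured reference in these values. The paper, which had such samples, names Wif1 among the top genes lower in the ONP at 30 days than without injury. The 30 day libraries are called here by replicate number, and those of 7 days by the number in their column name.

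Wnt ligands bind Frizzled receptors together with the co-receptors Lrp5 or Lrp6, which stabilises beta-catenin and switches on targets such as Axin2 and Lef1. The secreted Frizzled-related proteins (Frzb, also called Sfrp3, and Sfrp1, Sfrp2, Sfrp4 and Sfrp5) carry a domain like the Wnt-binding part of Frizzled and bind Wnts, as does Wif1, which has a domain of its own for this. Dickkopf proteins act on the receptor side: Dkk2 binds Lrp5 and Lrp6, while Dkk3 is a divergent family member whose effect on Wnt signalling depends on context. In the central nervous system astrocytes are one source of such extracellular regulators.

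Libraries held 16292489 to 33307092 counts. Levels are CPM, the counts of a gene divided by its library's total after TMM scaling over all 22 libraries, and 3 counts, or 0.0901 to 0.184 CPM, was taken as the smallest detectable amount, which covers counting error only. The summed level of 8 astrocyte markers (Gfap, Aqp4 and others) was 12519 to 30130 CPM in every library, with no marker missing in any group. The summed level of 5 oligodendrocyte markers (Mbp, Mog and others) was 57434 to 69537 CPM in the ONP at 7 days and 16854 to 57521 CPM at 30 days, against 9898 to 30522 CPM over the 11 ONH libraries. Markers of retinal pigment epithelium and pigment cells (8 genes) summed to 288 to 1556 CPM in the ONH and 79.1 to 144 CPM in the ONP, and those of fibroblasts of the meninges or sclera (8 genes) to 512 to 2333 CPM and 129 to 764 CPM. Fewer cells of a type and less RNA per cell cannot be told apart in such pools.

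The sequence before the gene start is shown for Wif1, the member with the largest fall in the ONP, and for Sfrp5, the only one of the 6 members fitted at 30 days that was lower in the ONH than in the ONP. RefSeq windows (GRCm38.p6) of 250 bases before the annotated start were found for 5 of the 8 members: Frzb, Sfrp2, Sfrp5, Wif1 and Dkk2. Of the Frzb window, 229 bases lie in exons of GENCODE M21 and only 21 come before them. The Frzb window is thus mostly exon, and its GC box at position -51 lies in the exon part. The sequences run 5′ to 3′ on the strand of the gene, and capitals mark GC boxes (GGGCGG or its reverse complement, both strands searched). The Wif1 window lies on the plus strand at chr10:121033754-121034003, and 44 of its bases are in exons of GENCODE M21. Only the part before the first exon base, chr10:121033754-121033959, is printed.
Wif1: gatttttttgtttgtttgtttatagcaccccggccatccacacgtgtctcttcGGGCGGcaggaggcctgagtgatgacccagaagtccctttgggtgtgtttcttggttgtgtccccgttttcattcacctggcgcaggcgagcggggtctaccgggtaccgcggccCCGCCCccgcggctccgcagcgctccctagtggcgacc
The Sfrp5 window lies on the minus strand at chr19:42202253-42202502.
Sfrp5: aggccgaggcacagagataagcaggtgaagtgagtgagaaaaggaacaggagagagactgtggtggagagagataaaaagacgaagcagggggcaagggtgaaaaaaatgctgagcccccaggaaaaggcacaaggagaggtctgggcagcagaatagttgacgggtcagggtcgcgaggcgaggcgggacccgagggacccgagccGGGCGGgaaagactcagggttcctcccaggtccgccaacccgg
The full Wif1 window was 62.8% G or C with 21 CpG dinucleotides and that of Sfrp5 59.6% with 13, against medians of 52.4% and 6 over 32851 promoter windows. Wif1 and Dkk2 each held 2 GC boxes, Frzb and Sfrp5 each held 1, and 32.7% of all windows held at least 1. The core motifs of the TCF/LEF factors (CTTTG followed by AA, AT, TA or TT, both strands) were searched as well. None of the 5 windows held any of them, against 14.8% of all windows, which says only that these letters are not in these stretches. The AP-1 motif TGANTCA was also in none of the 5 windows, against 6.75% of all.

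Wif1 (Wnt inhibitory factor 1, chr10:121033960-121100650, plus strand) was measured in the ONP at 7 days at 61.8, 38.2, 26.6 and 54.2 CPM in libraries 1, 2, 5 and 6, a mean of 45.2 ± 15.8 CPM (SD, n = 4). In the ONP at 30 days it was 11.1, 10.2, 10.3, 5.81, 3.16, 13.2 and 4.32 CPM in replicates 1 to 7, a mean of 8.29 ± 3.82 CPM (n = 7). Every 30 day pool of the ONP was thus below every 7 day pool. The highest 30 day pool (replicate 6) held 13.2 CPM and the lowest 7 day pool (library 5) 26.6 CPM. How many of all genes show such a separation was not counted. In the ONH the 7 day libraries 1, 3, 5 and 6 held 46.5, 57.8, 43.2 and 67.2 CPM (53.7 ± 11.0, n = 4). The ONH at 30 days ranged from 42.1 to 75.6 CPM with a median of 47.3 CPM (55.8 ± 13.2, n = 7), and the ONH groups overlapped. The fitted log2 fold change from 7 to 30 days was -2.48 (SE 0.36) in the ONP, a 5.57-fold fall, and 0.03 (SE 0.20) in the ONH. At 7 days the ONH and ONP overlapped for Wif1, with a log2 difference of 0.27 (SE 0.27, 95% interval -0.26 to 0.79), and at 30 days they did not, with the ONH 6.70-fold higher (log2 2.74, SE 0.29).

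Frzb (chr2:80411970-80447625, minus strand), first known as a Wnt-binding protein of cartilage, followed a similar order of groups with less spread. The ONP at 7 days held 25.5, 31.6, 27.8 and 27.5 CPM in libraries 1, 2, 5 and 6 (28.1 ± 2.56, n = 4). The 7 pools of the ONP at 30 days held 13.2, 14.6, 11.9, 11.999, 11.6, 12.9 and 12.4 CPM (12.7 ± 1.01), all below the 7 day pools. In the ONH, libraries 1, 3, 5 and 6 of 7 days held 26.7, 29.2, 24.3 and 20.8 CPM (25.2 ± 3.58). The ONH at 30 days ranged from 23.5 to 45.2 CPM, with a median of 30.7 CPM (32.3 ± 7.54, n = 7), and overlapped the 7 day pools although 5 of its 7 pools were above all of them. The log2 fold change from 7 to 30 days was -1.18 (SE 0.11) in the ONP, a 2.26-fold fall, and 0.33 (SE 0.20) in the ONH. The ONH and ONP overlapped at 7 days (log2 difference -0.13, SE 0.19, 95% interval -0.51 to 0.24) and did not overlap at 30 days, when the ONH was 2.55-fold higher (log2 1.35, SE 0.14).

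**Figure D1:**
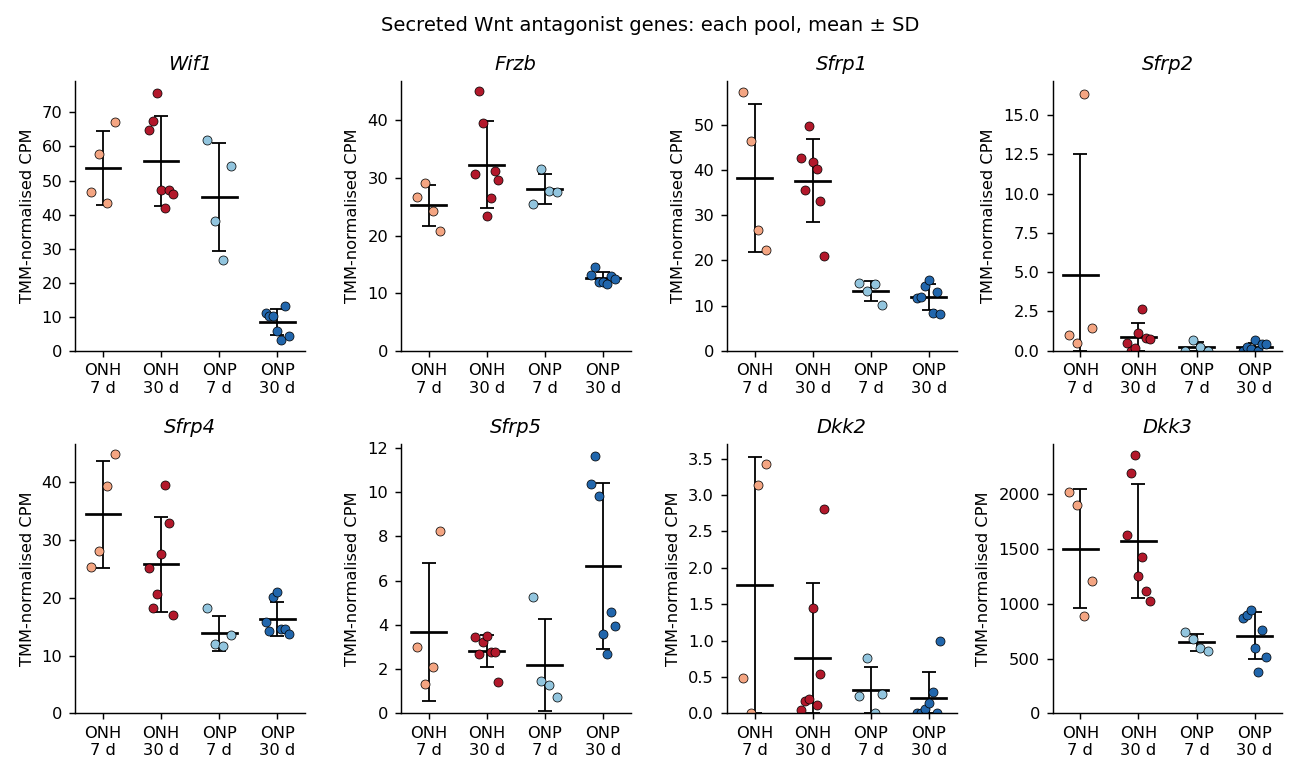
TMM-normalised CPM (linear axes starting at 0) of the 8 secreted Wnt antagonist genes in each pool, by region and day; points are pools, the long line is the mean and the bars are ± 1 SD, stopped at 0. Wif1 and Frzb in the ONP at 30 days sit below all pools of the other 3 groups, and Sfrp1 and Dkk3 sit higher in the ONH than in the ONP at both times.

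The change over time was then compared between the regions. From 7 to 30 days the change in the ONP minus that in the ONH was -2.50 (SE 0.44) on the log2 scale for Wif1 and -1.51 (SE 0.22) for Frzb. In edgeR's quasi-likelihood test 0.394% of 16748 genes were called, at an adjusted p under 0.05, for such a difference in the lower direction and 0.149% in the higher one (66 and 25 genes, or 32 and 37 with scaling by library size alone, which shifted the median of all genes by 0.15); of the 8 members, all of which were fitted, 2 were called lower and 0 higher. As these contrasts were among the values on which the genes had been picked, nothing is read from the count. For the other 6 members the difference of changes lay between -0.14 (Sfrp1, SE 0.35) and 2.67 (Sfrp2, SE 1.71).

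In the ONP between 7 and 30 days, 6 members had enough counts to be fitted and Sfrp2 and Dkk2 did not. Wif1 and Frzb were called lower and 0 members higher, where 9.21% of 15491 genes were called lower and 7.82% higher (1427 and 1211 genes). Scaling by library size alone shifted the median log2 fold change of all genes by 0.11 and gave 966 lower and 1934 higher, and on that scale Wif1 was at -2.35 and Frzb at -1.06. Sfrp5 (chr19:42197971-42202252, minus strand), a Frizzled-related protein known from fat tissue and the developing foregut, moved the other way. It was at 5.27, 1.46, 1.27 and 0.750 CPM in libraries 1, 2, 5 and 6 of the ONP at 7 days (2.19 ± 2.08, n = 4) and at 10.4, 11.6, 9.83, 3.60, 2.68, 4.61 and 3.96 CPM in replicates 1 to 7 of the ONP at 30 days (6.66 ± 3.77, n = 7). Replicates 1, 2 and 3 stood at 9.83 CPM or more and the other 4 at 4.61 CPM or less, and these 4 overlapped the 7 day range, in which library 1 was the highest. The fitted log2 fold change was 1.59 (SE 0.59), which did not pass the threshold. It was 2.52 (SE 0.56) and passed without library 1 of the 7 day ONP, and passed with DESeq2 (1.61, SE 0.53). As Sfrp5 was picked with these values known, no support is drawn from these calls. The log2 fold changes of Sfrp1, Sfrp4 and Dkk3 in the ONP were -0.19 (SE 0.20), 0.21 (SE 0.18) and 0.10 (SE 0.22).

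In the ONH no member was called between 7 and 30 days, and all 8 were fitted. The shares of all 15668 genes called were 0% higher and 0% lower with edgeR, 2179 genes had an unadjusted p under 0.05, and DESeq2 called 446 genes but again no member. The 95% intervals of the log2 change were -0.06 to 0.73 for Frzb, -0.36 to 0.43 for Wif1, -0.59 to 0.49 for Sfrp1, -0.93 to 0.04 for Sfrp4 and -0.51 to 0.59 for Dkk3. Those of the low genes were wider, from -3.51 to 1.07 for Dkk2. Sfrp2 had the largest change among the members in the ONH, a log2 change of -2.50 (SE 1.02, interval -4.50 to -0.49), and without library 5 of the 7 day ONH it was -0.23 (SE 1.02).

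Regional differences were present at both times for Sfrp1, Dkk3 and Sfrp4. Sfrp1 (chr8:23411502-23449632, plus strand), a Frizzled-related protein that also affects neural progenitors, was at 57.3, 46.4, 26.8 and 22.3 CPM in libraries 1, 3, 5 and 6 of the ONH at 7 days (38.2 ± 16.4) and at 15.0, 13.2, 14.7 and 10.2 CPM in libraries 1, 2, 5 and 6 of the ONP (13.3 ± 2.19). At 30 days it ranged from 20.9 to 49.7 CPM in the ONH, with a median of 40.1 CPM (37.7 ± 9.12, n = 7), and from 8.03 to 15.6 CPM in the ONP, with a median of 11.8 CPM (11.9 ± 2.85, n = 7). The regions did not overlap at either time, and the ONH was 2.93-fold higher at 7 days (log2 1.55, SE 0.32) and 3.17-fold higher at 30 days (log2 1.67, SE 0.19).

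Dkk3 (chr7:112116017-112159057, minus strand) was by far the most abundant member. It was at 2019, 1904, 889 and 1206 CPM in the ONH libraries 1, 3, 5 and 6 of 7 days (1504 ± 545) and at 746, 680, 594 and 569 CPM in the ONP libraries 1, 2, 5 and 6 (647 ± 81.3). At 30 days it ranged from 1028 to 2362 CPM in the ONH with a median of 1426 CPM (1574 ± 523, n = 7) and from 376 to 946 CPM in the ONP with a median of 761 CPM (708 ± 216, n = 7). Neither time showed an overlap between the regions. The ONH was 2.36-fold higher at 7 days (log2 1.24, SE 0.26) and 2.22-fold higher at 30 days (log2 1.15, SE 0.24).

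Sfrp4 (chr13:19623104-19632994, plus strand), known for its role in phosphate handling and bone, was at 25.4, 28.1, 39.3 and 45.0 CPM in the ONH libraries 1, 3, 5 and 6 of 7 days (34.4 ± 9.25) and at 18.2, 12.03, 11.7 and 13.5 CPM in the ONP libraries 1, 2, 5 and 6 (13.8 ± 3.01). The regions were apart at 7 days, with the ONH 2.52-fold higher (log2 1.33, SE 0.25). At 30 days the ONH ranged from 17.0 to 39.5 CPM with a median of 25.2 CPM (25.9 ± 8.23, n = 7) and the ONP from 13.8 to 21.04 CPM with a median of 14.7 CPM (16.3 ± 2.99, n = 7). Here 4 of the 7 ONH pools were above all ONP pools and 3 were not, and the difference was 1.58-fold (log2 0.66, SE 0.18).

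Sfrp5 in the ONH was at 3.02, 1.35, 2.11 and 8.24 CPM in libraries 1, 3, 5 and 6 at 7 days (3.68 ± 3.12) and between 1.40 and 3.49 CPM at 30 days, with a median of 2.76 CPM (2.82 ± 0.713, n = 7). Its difference between the regions was 0.77 (SE 0.76, 95% interval -0.71 to 2.25) on the log2 scale at 7 days. This difference was -0.01 (SE 0.77) without library 6 of the ONH and 1.67 (SE 0.76) without library 1 of the ONP. At 30 days its level was lower in the ONH (log2 fold change -1.25, SE 0.35), although 5 of the 7 ONH pools lay within the ONP range.

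Sfrp2 and Dkk2 were near the smallest detectable amount outside the ONH. Sfrp2 (chr3:83766321-83774316, plus strand), a Frizzled-related protein abundant in fibroblasts and mesenchyme, was at 1.02, 0.508, 16.4 and 1.46 CPM in libraries 1, 3, 5 and 6 of the ONH at 7 days, so that 1 pool made most of the mean of 4.84 CPM. It was at most 2.64 CPM in the ONH at 30 days and 0.700 CPM in the ONP, where 4 of 11 libraries had no counts. The log2 difference between the regions at 7 days was 4.38 (SE 1.48) with library 5 and 2.09 (SE 1.31) without it, and neither passed the threshold. Dkk2 (chr3:132085292-132180304, plus strand) was at 0.485, 0, 3.13 and 3.42 CPM in the same ONH libraries, at most 2.81 CPM in the ONH at 30 days and at most 0.999 CPM in the ONP, with 0 counts in 4 of 11 ONP libraries. It had too few counts to be compared between the regions at either time.

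Of the members fitted, 3 of 7 were called higher in the ONH at 7 days and 0 lower, where 6.34% of 14752 genes were called higher and 6.81% lower (936 and 1004 genes, or 1392 and 840 with scaling by library size alone). At 30 days 5 of 6 were called higher and 1 lower, where 21.8% of 15133 genes were called higher and 20.0% lower. These counts rest on values used in choosing the genes. Both regions were dissected from each mouse, and at 30 days they share the replicate number. This number was taken to mark 7 pairs, though that is not stated. The numbers 1, 5 and 6 of the 7 day libraries occur in both regions, but whether they mark a shared pool is not stated. With these 3 numbers as a block, and libraries 2 and 3 left out, 879 genes were called at 7 days, Dkk3 (log2 1.05, SE 0.23) and Sfrp2 (log2 6.45, SE 1.01) among them, while Sfrp1 (log2 1.33, SE 0.33) and Sfrp4 (log2 1.35, SE 0.36) did not pass. The ONH was higher in 7 of 7 pairs for Wif1, Frzb, Sfrp1, Sfrp4 and Dkk3 and in 1 of 7 pairs for Sfrp5. The share of all genes with 7 of 7 pairs on 1 side, or without overlap between groups, was not counted. Neither is therefore read as particular to the members. The log2 difference of CPM within a pair (prior count 2) ran from 1.83 to 3.69 for Wif1, from 0.96 to 1.73 for Frzb, from 1.338 to 2.24 for Sfrp1 and from 0.03 to 1.43 for Sfrp4.

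**Figure D2:**
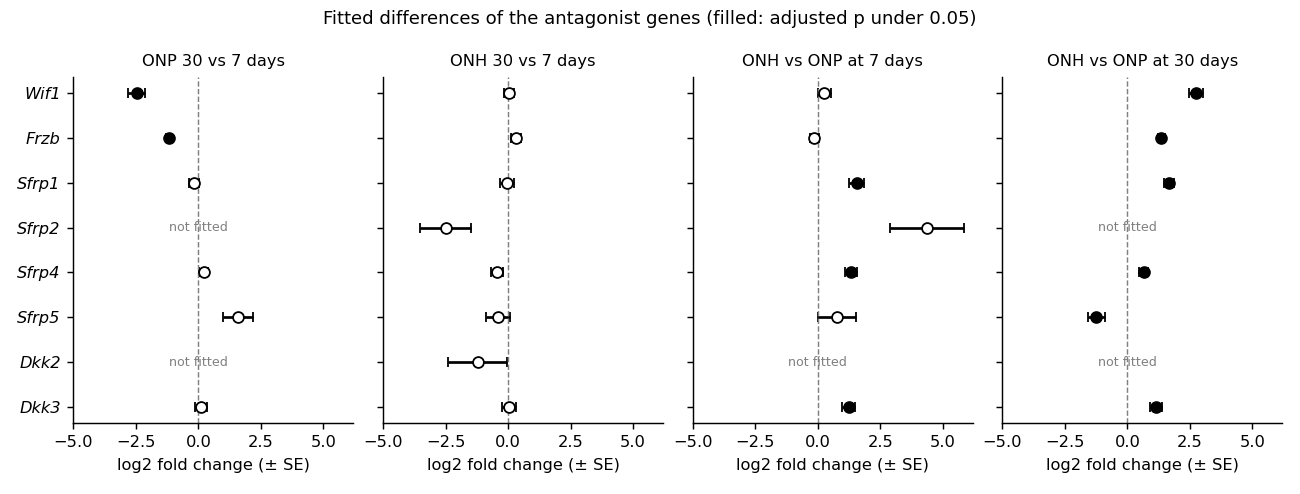
Fitted log2 fold change of each member (horizontal axis) with its SE in 4 comparisons. Filled points had an adjusted p under 0.05 over all genes and open points did not. The filling is a label and no test, since the members were picked with these values known. Wif1 and Frzb lie at -2.48 and -1.18 in the ONP over time and near 0 in the ONH over time and between the regions at 7 days.

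**Figure D3:**
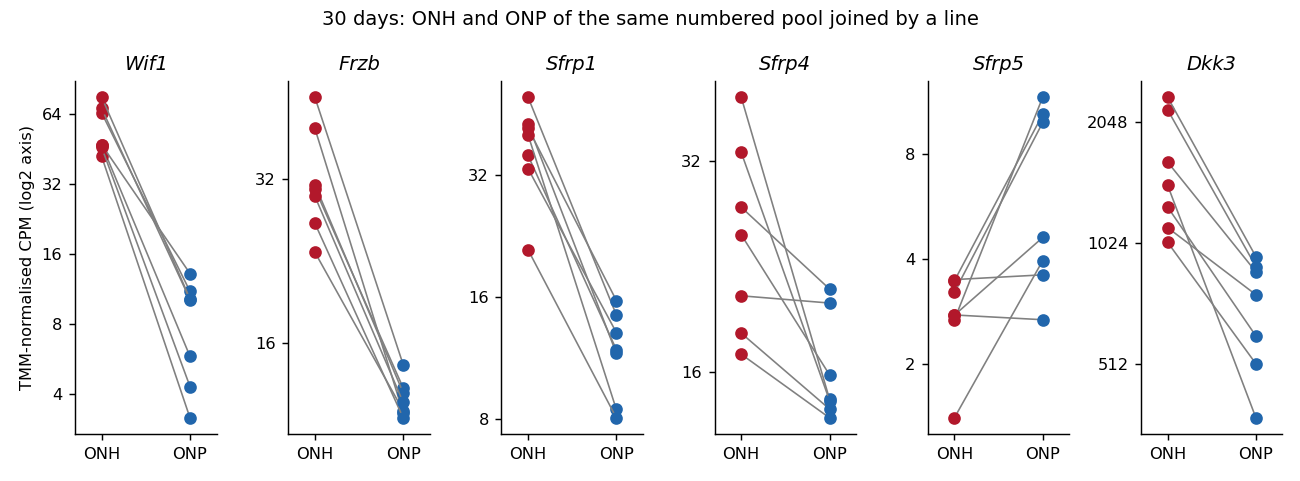
TMM-normalised CPM at 30 days (log2 axes, each with its own range) of 6 members. The ONH and ONP of the same replicate number are joined by a line, n = 7 pairs. All lines fall from ONH to ONP for Wif1, Frzb, Sfrp1, Sfrp4 and Dkk3, and 6 of 7 rise for Sfrp5.

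Per kilobase of exon length, which allows genes to be compared, Dkk3 made up 84.6% to 92.3% of the summed level of the members in the 4 groups. Wif1 was next in the ONH at both times and in the ONP at 7 days, at 22.1 ± 4.51, 23.0 ± 5.42 and 18.6 ± 6.52 CPM per kb. In the ONP at 30 days Frzb (3.91 ± 0.313), Sfrp4 (3.91 ± 0.715), Sfrp5 (3.51 ± 1.98), Wif1 (3.42 ± 1.57) and Sfrp1 (2.71 ± 0.652 CPM per kb) came after Dkk3, and each of these neighbours in the order differed from the next by less than the larger SD of the pair. Below Wif1, the ONH at 7 days held Sfrp1 (8.74 ± 3.76), Sfrp4 (8.24 ± 2.21) and Frzb (7.80 ± 1.11 CPM per kb) within their spread of each other. The ONH at 30 days held Frzb (9.99 ± 2.33), Sfrp1 (8.62 ± 2.09) and Sfrp4 (6.19 ± 1.97), where Frzb and Sfrp1 differed by less than the larger SD and Sfrp1 and Sfrp4 by more, and the ONP at 7 days held Frzb (8.68 ± 0.790) above Sfrp4 (3.31 ± 0.721) and Sfrp1 (3.03 ± 0.502). Sfrp2 and Dkk2 ranked lowest in 3 of the 4 groups, and Sfrp5 (1.94 ± 1.64 CPM per kb) came below Sfrp2 (2.25 ± 3.57) in the ONH at 7 days. That order rested on library 5, without which Sfrp2 was at 0.463 and Sfrp5 at 2.21 CPM per kb.

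The members' levels stood beside those of other cells' markers. In the ONP the summed oligodendrocyte markers averaged 60879 CPM at the earlier time against 35544 CPM at the later one, a difference in the same direction as that of Wif1 and Frzb. The mean was lower at 30 days for 10 of 11 marker lists in the ONP, and astrocyte markers were the exception (17209 and 23376 CPM). Single genes weigh heavily in such sums. Gfap held 18167 CPM of the later astrocyte mean. Slc1a3 (1351 and 1148 CPM) and Aldh1l1 (163 and 147 CPM) averaged lower at 30 days and the other astrocyte markers higher. Of the OPC (oligodendrocyte precursor) markers, Olig1 (1182 and 762 CPM) and Cspg4 averaged lower, and Pdgfra (71.1 and 91.3 CPM) and Olig2 (61.5 and 79.8 CPM) higher. Endothelial markers averaged 91.1 and 28.1 CPM, mural markers 60.8 and 34.2 CPM and those of surface epithelium 32.1 and 5.598 CPM. These lists were lower at 30 days in the ONH too, where 9 of 11 lists were. There endothelial markers averaged 141 and 51.5 CPM, mural markers 226 and 73.4 CPM and those of surface epithelium 69.6 and 4.04 CPM. In the ONP Pecam1, a junction protein of endothelial cells, fell by 2.70 on the log2 scale (SE 0.62) and Rgs5, a marker of pericytes, by 1.66 (SE 0.28). The mural markers did not all move alike. Acta2 averaged 18.7 and 8.44 CPM there, Pdgfrb 20.8 and 17.8 CPM and Myh11 0.241 and 0.203 CPM, while Notch3 was higher at 30 days (0.566 and 1.21 CPM). Replicate 5 of the 30 day ONP had an oligodendrocyte sum of 57521 CPM, just inside the 7 day range, and its Wif1 (3.16 CPM) and Frzb (11.6 CPM) were the lowest of all libraries. Among the 30 day ONP pools, Wif1 was at 3.16 to 5.81 CPM in replicates 4, 5 and 7, where markers of microglia and macrophages (6 genes) summed to 608 to 1840 CPM, and at 10.2 to 13.2 CPM in the other 4, where they summed to 136 to 220 CPM. At 7 days these markers summed to 860 to 1418 CPM in the ONP. Replicates 4, 5 and 7 also held less of the astrocyte markers (13802 to 21140 CPM, against 25253.5 to 30130 CPM in the other 4). They held more of the oligodendrocyte markers (41810 to 57521 CPM, against 16854 to 36062 CPM). Frzb overlapped between these pools, and Sfrp5 was highest in replicates 1, 2 and 3, the pools with the lowest oligodendrocyte sums. The part of these cells in the values was not tested.

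**Figure D4:**
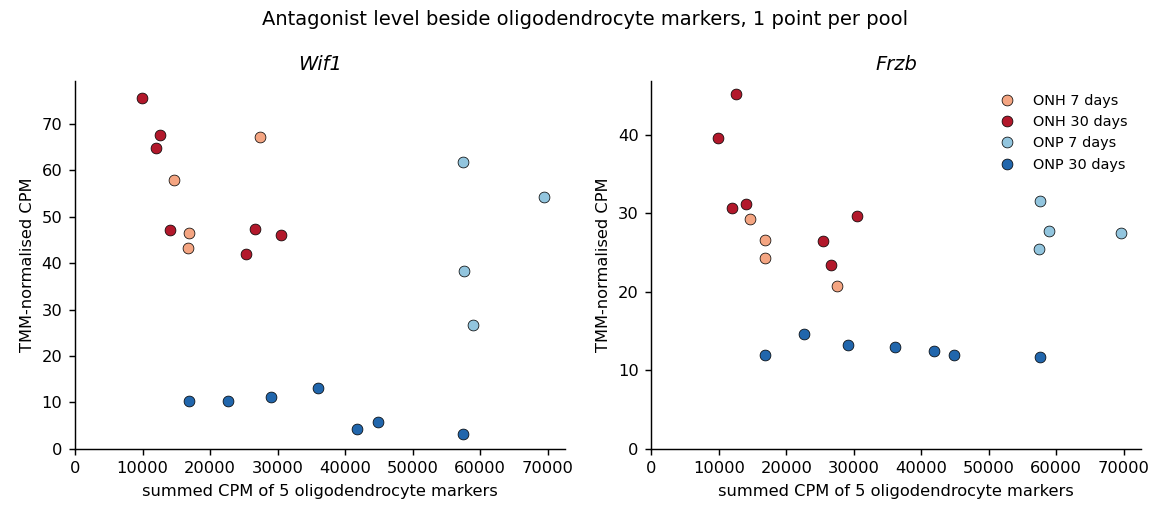
Wif1 (left) and Frzb (right) in TMM-normalised CPM against the summed CPM of 5 oligodendrocyte markers, 1 point per pool, coloured by group. The 30 day ONP pools are low for both genes over a range of oligodendrocyte sums from 16854 to 57521 CPM.

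For the ONH, the summed markers of pigment cells and fibroblasts averaged higher than in the ONP, as did Sfrp1, Sfrp4 and Dkk3. At 30 days Col1a1 (20.1 against 34.9 CPM), Ogn (6.94 against 11.9 CPM) and Slc6a13 (24.6 against 26.9 CPM) averaged lower in the ONH. The other fibroblast markers averaged higher there. Of the ONH means at 30 days, Col1a2 held 444 of the 765 CPM of fibroblast markers and Rlbp1 307 of the 622 CPM of pigment cell markers. Photoreceptor markers (6 genes) of the ONH pools at 7 days summed to 5162 CPM for library 6, to 1056 CPM for library 5 and to 138 and 144 CPM for the others, and Sfrp1 and Dkk3 were lower, and Sfrp4 and Dkk2 higher, in libraries 5 and 6 than in the other 2. Astrocyte markers were lower in these libraries too (12519 and 13812 CPM, against 19204 and 25051 CPM). Markers of mural cells (5 genes, 307 and 364 CPM) and endothelial cells (6 genes, 228 and 218 CPM) were also highest in those libraries. Without library 5 or library 6 the ONH at 7 days still exceeded the ONP for Sfrp1, Sfrp4 and Dkk3, which were called with each library left out. What share of the values came from these cells was not tested.

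Among 16748 genes, the ones whose log2 CPM followed each member most closely over the 22 libraries were listed as a description, since libraries share region, day and pool. Wif1 was closest to Gdf10, a growth factor of the BMP family (Pearson r = 0.94, and 0.90 after the group means were removed), followed by Tbc1d4, a regulator of glucose transporter traffic (0.93), and Slit2, an axon guidance ligand (0.90). Frzb was closest to Tbc1d4 as well (0.93), then to Fryl (0.90) and to Wif1 itself (0.90), and its r with Wif1 was 0.30 within groups. Sfrp1 was closest to Aif1l (0.94), Gabrg3, a GABA receptor subunit (0.94), and Ephb2, a receptor for ephrin-B ligands (0.94). Dkk3 was closest to Mtfr1 (0.95), Gpld1 (0.94) and Slc25a24 (0.94), Sfrp4 to Fcgrt (0.90), AC154478.1 (0.89) and Rcn3 (0.88), and Sfrp5 to Apoo (0.82), Ubxn2b (0.79) and Gstt1 (0.78). For Sfrp2 (Jph2 0.82, Six2 0.78, Meaf6 0.78) and Dkk2 (Hprt 0.88, Ifi30 0.81, Pon3 0.81) the values rest on low counts. Sfrp1 and Dkk3 had an r of 0.91 with each other. Part of these values reflects the differences between the groups. After the group means were removed, r was 0.53 and 0.55 for Wif1 with Tbc1d4 and Slit2. It was 0.63 and 0.33 for Frzb with Tbc1d4 and Fryl, and 0.61 to 0.72 for the genes closest to Sfrp1. For those closest to Dkk3 it was 0.85 to 0.86.

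The rest of the pathway was described with 82 other Wnt genes, of which 69 to 73 were fitted in each comparison. In the ONP from 7 to 30 days 9 of 69 were called higher and 10 lower (7.82% and 9.21% over all genes), with a median log2 change of -0.07 against -0.01 over all genes. In the ONH over time 0 of 72 were called with edgeR, where 9 had an unadjusted p under 0.05, and 2 with DESeq2. The ONH exceeded the ONP in 10 of 69 at 7 days and fell below it in 2 (6.34% and 6.81% over all genes), and at 30 days these counts were 25 and 11 of 69 (21.8% and 20.0%), with median log2 differences of 0.44 and 0.30 against 0.07 and -0.01 over all genes. For the change over time by region, 2 of 73 were called higher and 0 lower (0.149% and 0.394% over all genes). With each library left out in turn, 7 of the 19 genes called in the ONP over time were called in every fit (Wnt3, Wnt5a, Fzd1, Fzd9, Lgr6, Lef1 and Nkd1), as were 28 of 36 between the regions at 30 days, 4 of 12 at 7 days (Igfbp4, Rspo3, Fzd1 and Ccnd1) and 0 of 2 for the change by region. Among the genes named below, the call was lost in most of these fits for Igfbp4, Ror2, Dvl3, Bcl9l and Sp5 in the ONP, for Wnt10a and Gsk3a at 30 days and for Wnt3, Wnt4 and Fzd5 at 7 days. Adjusted p-values below are from edgeR's quasi-likelihood test with Benjamini-Hochberg adjustment over all genes.

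Among the other extracellular inhibitors, 1 of 6 fitted genes was called higher in the ONP over time and 0 lower (7.82% and 9.21% over all genes). Igfbp4, an insulin-like growth factor binding protein that also binds Frizzled and Lrp6, rose there from 10.5 ± 2.39 to 25.4 ± 12.1 CPM (log2 1.24, SE 0.36, adjusted p = 0.034). Its ONH level was 145 ± 108 CPM at the earlier time against 49.997 ± 17.2 CPM at the later one, and its change differed between the regions by 2.80 on the log2 scale (SE 0.60, adjusted p = 0.033), opposite in sign to Wif1 and Frzb. Sostdc1, which binds BMPs and Lrp6, was higher in the ONH by 4.76 (SE 1.16, adjusted p = 0.021) at 7 days and 3.17 (SE 0.66, adjusted p = 0.0014) at 30 days on the log2 scale. Notum, an enzyme that removes the lipid of Wnts, was at 1.95 ± 0.924 CPM in the 30 day ONH and 0.678 ± 0.447 CPM in the ONP (log2 1.51, adjusted p = 0.013). Apcdd1, a membrane-bound inhibitor, was higher in the ONH at 30 days (9.49 ± 4.23 against 4.76 ± 2.11 CPM, adjusted p = 0.026). Draxin and Trabd2b did not pass in any comparison, at group means of 5.05 to 7.99 and 1.10 to 1.85 CPM.

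Of the ligands and the proteins for their secretion, 1 of 13 was called higher in the ONP over time and 2 lower (7.82% and 9.21% over all genes). Wnt3 fell from 53.4 ± 17.6 to 20.8 ± 6.54 CPM (log2 -1.39, SE 0.25, adjusted p = 0.0042) and Wnt5a, which signals largely without beta-catenin, fell from 22.02 ± 5.13 to 11.0 ± 2.70 CPM (log2 -1.03, SE 0.21, adjusted p = 0.0080). Wnt11 rose from 0.554 ± 0.502 to 3.75 ± 1.51 CPM (log2 2.67, SE 0.68, adjusted p = 0.020). Between the regions Wnt8b was higher in the ONH by 2.32 (SE 0.51, adjusted p = 0.014) at 7 days and 2.76 (SE 0.25) at 30 days on the log2 scale. Wnt4 was higher in the ONH at both times as well (log2 1.28 and 0.80). At 30 days Wnt5a (log2 1.65), Wnt10a (1.44) and Wnt7b (0.46) were higher in the ONH, while Wnt11 (-1.88), Wnt7a (-1.08) and Wls (-1.19), the carrier that takes Wnts to the cell surface, were lower. Wnt3 was lower in the ONH at 7 days (log2 -1.44, SE 0.38, adjusted p = 0.030). Wnt5b, Wnt6, Wnt9a and Porcn, the enzyme that adds the lipid, were not called in any comparison, and their group means ran from 20.9 to 24.1, from 11.2 to 38.2, from 3.69 to 6.01 and from 25.1 to 44.3 CPM. Wnt16 reached a group mean above 1 CPM only in the ONH at 7 days, at 1.17 ± 0.874 CPM.

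R-spondins raise Frizzled levels at the cell surface. Rspo1 was at 0.628 ± 0.429 CPM in the 30 day ONH and 9.04 ± 3.60 CPM in the ONP (log2 -3.84, SE 0.46) and rose in the ONP from 2.76 ± 2.19 CPM (log2 1.67, SE 0.45, adjusted p = 0.025). Rspo3 was higher in the ONH at 7 days (log2 1.19, SE 0.22) and 30 days (log2 0.81, SE 0.19), and Ndp, a Fzd4 ligand, at 30 days (log2 0.46, SE 0.16, adjusted p = 0.032).

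Receptors changed in both directions in the ONP over time, with 5 of 22 called higher and 2 lower (7.82% and 9.21% over all genes). Fzd1 fell by 1.10 on the log2 scale (SE 0.14) and Fzd4 by 1.13 (SE 0.31), while Lgr6 (log2 2.12, SE 0.30), Fzd9 (1.32, SE 0.30) and Ror2 (0.86, SE 0.27) had the largest rises, that of Ror2 called in 2 of 11 fits with a library left out. Fzd9 was the second of the other genes whose change differed between the regions (1.85, SE 0.40, adjusted p = 0.036). Fzd1 and Fzd5 were higher in the ONH at both times, by 1.46 and 2.14 on the log2 scale at 7 days and by 1.99 and 2.45 at 30 days. Rnf43, a ligase that removes Frizzleds, was lower in the ONH at both times (log2 -1.66 and -1.36).

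Of the 18 cytoplasmic proteins and TCF/LEF factors, Lef1, itself a factor through which beta-catenin acts, fell in the ONP from 7.85 to 1.41 CPM (log2 -2.49, SE 0.57, adjusted p = 0.013). Apc2 (log2 -0.74) and Bcl9l (-0.69) fell as well, and Dvl3 rose (0.36, SE 0.12, adjusted p = 0.047). At 30 days Lef1 (1.35), Ctnnb1 (0.61), which encodes beta-catenin, and Dvl1 (0.56) were higher in the ONH and Dvl3 (-1.04), Dvl2 (-0.75) and Gsk3a (-0.64) were lower.

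Of the 7 target genes, 0 were called higher in the ONP over time and 2 lower (7.82% and 9.21% over all genes). Sp5 fell there from 1.03 ± 0.444 to 0.248 ± 0.206 CPM (log2 -2.04, SE 0.58, adjusted p = 0.031). The 30 day ONP was near the smallest detectable amount for Sp5, with more than 3 counts in 5 of 7 libraries. Its differences from this group therefore rest on low counts. Nkd1 fell from 111 ± 11.7 to 77.9 ± 12.7 CPM (log2 -0.54, SE 0.13, adjusted p = 0.015). At 30 days Sp5 (log2 4.16, SE 0.44), Ccnd1 (1.65, SE 0.17), Axin2 (1.12, SE 0.33) and Nkd1 (0.70, SE 0.14) were higher in the ONH, while Myc (-1.64, SE 0.36) and Tnfrsf19 (-0.84, SE 0.17) were lower. At 7 days only Ccnd1, a cell cycle regulator, was called, at 511 ± 138 CPM in the ONH and 242 ± 27.1 CPM in the ONP (log2 1.10, SE 0.20, adjusted p = 0.0052). Axin2 was at 2.91 ± 1.59 and 5.03 ± 2.99 CPM in the ONH and 1.59 ± 0.647 and 2.28 ± 0.738 CPM in the ONP at 7 and 30 days, and neither region showed a called change over time. Nkd2 did not pass in any comparison.

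**Figure D5:**
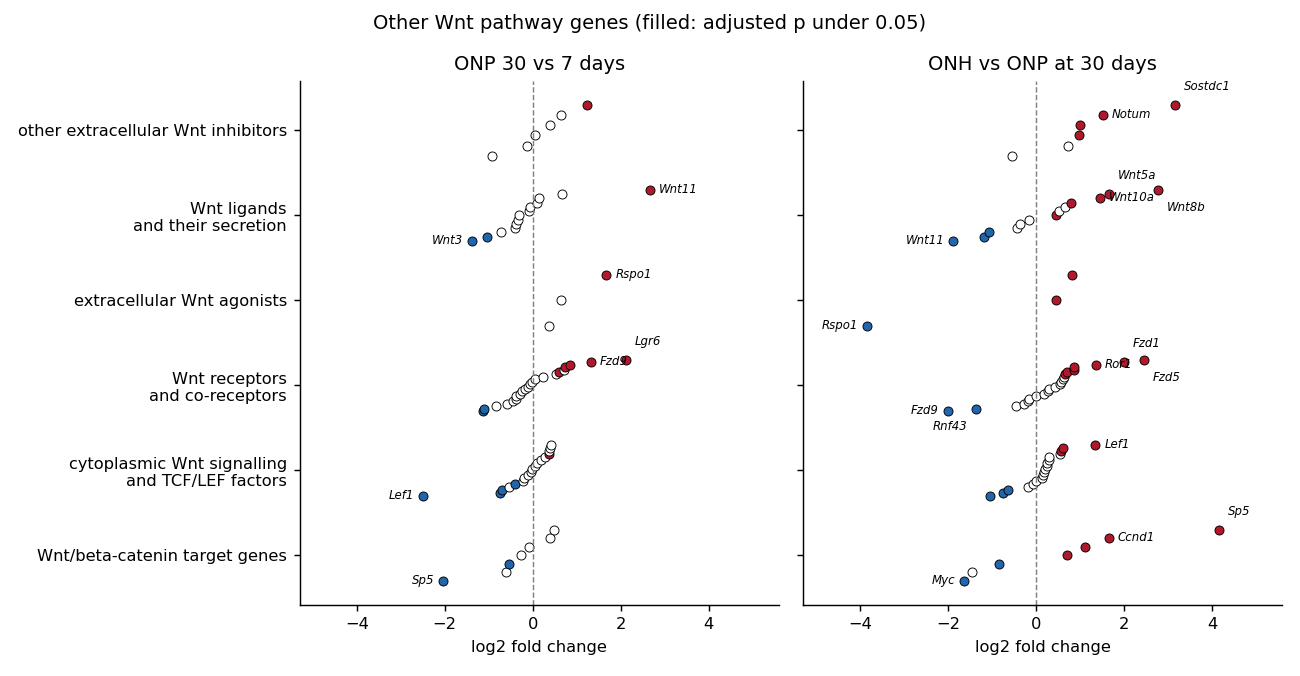
Fitted log2 fold change (horizontal axis) of the other Wnt pathway genes in the ONP over time (left) and between the regions at 30 days (right), 1 point per gene in 6 lists; filled points had an adjusted p under 0.05, red higher and blue lower. In the ONP over time 9 genes were called higher and 10 lower, and at 30 days 25 were higher in the ONH and 11 lower.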

How the data were processed

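Ribosome-bound mRNA of tagged optic nerve astrocytes was measured in 22 libraries. The authors aligned paired reads with STAR 2.6.1d to mm10, quantified Ensembl 94 transcripts with Salmon 0.14.2 and summed them per gene. They deposited these estimated counts as whole numbers, without normalization. Their second table, log2 values after the variance stabilizing transformation of DESeq2 1.34.0, was not used. Cell type estimates, uninjured samples and the genes Dkk1, Wnt1, Wnt3a and Wnt9b were not analysed here. The estimates can split reads between overlapping or similar transcripts, and the libraries were made from low amounts of poly(A) RNA, which adds spread to low genes.

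In R 4.3.3, edgeR 4.0.16 was fitted on the whole table: filterByExpr by group, TMM, the quasi-likelihood test and Benjamini-Hochberg adjustment over all genes, with an adjusted p under 0.05 called and no fold cutoff. Only the 2 groups compared entered a fit, and all 4 groups entered that of the change over time by region. Intervals are the estimate ± 1.96 SE, and log2 CPM used a prior count of 2. Libraries held 16292489 to 33307092 counts, of which 3 were taken as the smallest detectable amount. The scripts were tested on simulated data. Positions and lengths came from GENCODE M21 (GRCm38), which matched 29351 of 29367 identifiers. Pools of 1 region and time are separate sets of mice.

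Both regions were dissected from each mouse, per the paper's methods, so the replicate number was taken to pair them at 30 days. That an equal number marks a shared pool is not stated. Deviations from the group means in same-numbered 30 day pools correlated at 0.077 to 0.47 over 16748 genes, and 3 of 7 pools matched their own number best. The numbers of the 7 day columns do not match the sample labels. Those found in both regions (1, 5 and 6) correlated at 0.0212, 0.0117 and 0.146, and whether they mark a shared pool is not stated.

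The members and lists were chosen with earlier results of these data known. One gene of the oligodendrocyte marker list is not reported here and was left out of the sums. Genes named beside the members were, per list and comparison, the 3 largest increases and 3 largest decreases past the threshold, the ligands, targets and inhibitors with a group mean of at least 1 CPM, and the 3 closest genes by correlation for each member. Not all of them are described. Alternatives were DESeq2 1.42.0, RLE factors, library size only, no filter on low counts, at least 10 counts in every library, all 4 groups in 1 fit, the replicate as a block (limma 3.58.1 for the change by region) and each library left out. A block by the number of the 7 day columns was added after seeing the data.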

Additional observations from a re-analysis of the deposited data

Results flagged for a closer look

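Of 32 combinations of a member and a group, 5 held a pool far from the others of its group by Dixon's test. Chance gives this in about 1 of 20 for normally distributed values. All 5 fell on Sfrp2, Sfrp5 and Dkk2, the members with the lowest counts, where that rate need not hold. No excess over chance is therefore read from the count. Sfrp2 was at 16.4 CPM in library 5 of the ONH at 7 days, where the other 3 pools held 0.508 to 1.46 CPM. Sfrp2 was also at 2.64 CPM in replicate 5 of the ONH at 30 days. Sfrp5 was at 5.27 CPM in library 1 of the ONP at 7 days and at 1.40 CPM in replicate 7 of the ONH at 30 days, the latter on the low side. Dkk2 was at 0.999 CPM in replicate 7 of the ONP at 30 days.

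The change from 7 to 30 days differed between the regions in edgeR's test of the difference for 4 of the Wnt genes described. Wif1 and Frzb were chosen with this contrast known, so for them the values are a description. The change in the ONP minus that in the ONH was -2.50 for Wif1 and -1.51 for Frzb on the log2 scale, and it was 2.80 for Igfbp4 and 1.85 for Fzd9. With each of the 22 libraries left out in turn, Igfbp4 passed in 12 fits and Fzd9 in 9.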

How the results depend on the processing

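The calls of the members kept their direction under all alternatives run. As the members were picked with these values known, this is no support for them. Sfrp5 in the ONP over time was also called with DESeq2 (log2 1.61), without replicate 5 of the 30 day ONP (1.76) and without library 1 of the 7 day ONP (2.52), and Sfrp2 between the regions at 7 days was also called with all 4 groups in 1 fit (4.37). With all 4 groups in 1 fit, genes called numbered 1189 in the ONP over time, 292 in the ONH over time and 3785 between the regions at 7 days, and the other Wnt genes called 7, 1 and 25. With DESeq2 there were 446 genes called in the ONH over time, 3204 between the regions at 7 days and 409 for the change by region, and 2, 23 and 6 other Wnt genes. Without a filter on low counts there were 2 genes called in the ONH over time and 50 for the change by region.

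Leaving out 1 library at a time, the genes called ranged from 1439 to 3214 in the ONP over time, 0 to 167 in the ONH over time, 5671 to 6416 between the regions at 30 days, 1102 to 2379 at 7 days and 22 to 318 for the change by region. Members called ranged from 2 to 3, stayed at 0, 6, 3 and 2 in that order, and other Wnt genes from 8 to 23, 0 to 0, 31 to 36, 4 to 17 and 0 to 3. The lowest count of genes in the ONP was without library 6 of 7 days, and the highest counts in the ONH and for the change by region were without library 5 of the 7 day ONH. The cause of these moves was not tested.

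With the replicate block, genes called for the change by region went from 91 to 161, and no call of a member changed at 30 days or for the change by region. With the number of the 7 day columns as the replicate block, an alternative chosen after seeing the data, 879 genes and 5 other Wnt genes were called between the regions at 7 days (3 pairs) and 184 genes for the change by region. In that fit at 7 days Sfrp1 (log2 1.33) and Sfrp4 (1.35) lost their call and Sfrp2 (6.45) gained one. No paired analysis was possible for the comparisons over time because the mice of the 2 times differ. Depth limits Sfrp2 and Dkk2, which were close to 3 counts in many libraries.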
